A study of Arabidopsis thaliana with 4 samples.

Results

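The 6 genes described here, atpA, atpB, atpE, atpF, atpH and atpI, are the members of the chloroplast ATP synthase that are encoded in the plastid genome of Arabidopsis thaliana. They were chosen by gene symbol and plastid locus, and each had 1 probe set: 245024_at for atpA, 245014_at for atpB, 245013_at for atpE, 245025_at for atpF, 245026_at for atpH and 244995_at for atpI. They are 6 of 69 plastid-encoded genes that a probe set of a single gene named, on an array of 22810 probe sets. From total RNA of whole seedlings cRNA was made and hybridised to 1 Affymetrix array per group, so each of the 4 groups was measured once. Rescued emf2 was the emf2 mutant carrying 35S::BoEMF2.1, emf2 was the mutant without it, transWT was the wild type carrying 35S::BoEMF2.1, and WT was the Columbia wild type. All seedlings were 7 days old and came from plates kept at 21 °C in short days (8 h of light, 16 h of dark). Rescued emf2 and transWT grew with hygromycin and emf2 and WT without it, so transgene and hygromycin cannot be told apart. The 35S promoter is active in most plant tissues; neither the emf2 allele nor the number of lines and seedlings pooled was given in the sources used here.

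The chloroplast ATP synthase sits in the thylakoid membrane and makes ATP from the proton gradient that photosynthetic electron transport builds. Its head, CF1, carries the catalytic sites and its membrane part, CFo, carries the protons. The plastid genome encodes part of the complex and the nucleus the rest, so chloroplasts need both gene sets. The plastid genes lie in a pair of transcription units: atpI, atpH, atpF and atpA in one, read in that order, and atpB and atpE in the other, where the reading frames of the pair overlap. EMF2, the gene mutated here, encodes a subunit of Polycomb repressive complex 2, a nuclear chromatin complex that keeps floral genes silent in seedlings; BoEMF2.1 is its namesake from Brassica oleracea.

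Signals are probe set intensities from MAS5 on a linear scale, with every array scaled to the same trimmed mean. A signal below 87.6, the 40th percentile of all probe sets other than controls, is taken as not measurable and is called below the floor. Where one array of a pair was below the floor, the other was divided by the floor itself; the result is a lower bound, marked by "at least" or, on the log2 scale, called a bound. No difference has a p-value, since every group has 1 array. An error was estimated from 43 genes measured above the floor throughout by several probe sets each. From the disagreement of the brightest pair of probe sets of each gene, a log2 ratio had an error of 0.27 (SD) in emf2 over WT and of up to 0.38 in rescued emf2 over WT. This error holds no variation between plantings. The standard Affymetrix labelling usually starts from a poly(A) tail, which most chloroplast transcripts lack, and chloroplasts add short A-rich tails to RNAs that are being degraded. The primer is not given in the labels, and what share of plastid RNA was labelled was not tested. In RNA of whole seedlings, fewer chloroplasts or green cells and less RNA in each cannot be told apart.

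The arrays themselves differed with the transgene. The brightest probe set reached 35621 in rescued emf2, 24807 in emf2, 35035 in transWT and 23755 in WT. Poly-A control RNAs (7 probe sets) had a median of 2.48-fold the WT signal in rescued emf2, 1.05-fold in emf2 and 1.92-fold in transWT. The part of these differences in the results below was not tested. Green tissue markers (7 of 28 listed were named) summed to 102501 in rescued emf2, 48711 in emf2, 111626 in transWT and 83276 in WT. Root markers (3 of 10) summed to 18754, 18206, 18282 and 15775 in the same order. Most of the root sum was PYK10, at 17946, 16103, 17842 and 15178 in that order. The other root markers, EXPA7 and EXPA18, were 2.67-fold and 4.19-fold higher in emf2 than in WT. All 10 named markers were above the floor on every array, as for seedlings with shoots and roots.

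The subunits of the catalytic head were read from atpA, atpB and atpE. The gene for the alpha subunit, atpA, had a signal of 10737 in rescued emf2, 2420 in emf2, 15074 in transWT and 8491 in WT. The gene for the catalytic beta subunit, atpB, gave 25681 in rescued emf2, 6020 in emf2, 29872 in transWT and 17451 in WT. The gene for the epsilon subunit, which regulates the turning of the head, is atpE; its signals were 21732, 4285, 26031 and 12573 in the same order. The 3 genes had one order of arrays: transWT was highest, then rescued emf2, then WT, and emf2 was lowest.

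The membrane part was read from atpI, atpH and atpF. The gene for subunit a, which forms the proton channel, is atpI; it was dim, at 71.8 in rescued emf2, 22.1 in emf2, 262 in transWT and 213 in WT, so that both arrays of the mutant background lay below the floor. The gene for subunit c, which forms the rotating membrane ring, is atpH; it read 1198 in rescued emf2, 406 in emf2, 3245 in transWT and 2002 in WT. The gene for subunit b, part of the stalk that holds the head still, is atpF; it has an intron and read 2020, 704, 4026 and 3656 in the same order. The signals of atpH and atpF also were highest in transWT and lowest in emf2, but WT stood above rescued emf2. For atpI transWT was highest and then WT, and the order of the other two arrays, both below the floor, is not read. Signals of different probe sets do not rank the transcripts by abundance.

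**Figure D1:**
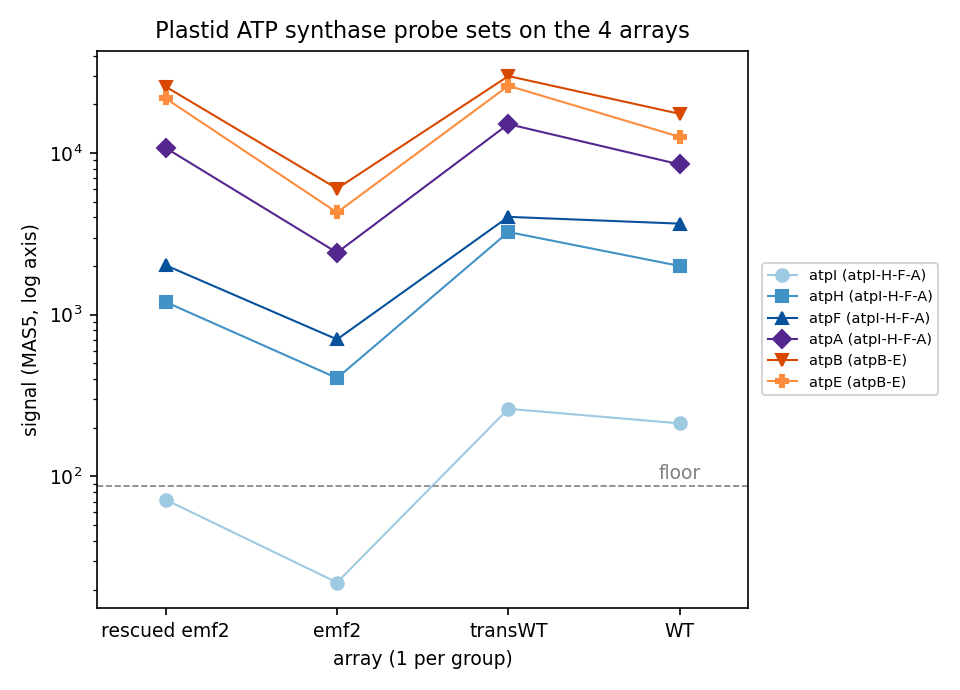
Signal of each of the 6 probe sets (log axis, MAS5 units) on the arrays of rescued emf2, emf2, transWT and WT, 1 array per group; the dashed line is the floor of 87.6 and the lines only join points of a gene. The 5 genes above the floor throughout are lowest in emf2, and atpI is below the floor in rescued emf2 (71.8) and emf2 (22.1).

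All 6 genes were at least 2-fold lower in emf2 than in WT. In this comparison 11.1% of the 14653 probe sets tested were at least 2-fold lower and 7.34% at least 2-fold higher. The log2 ratios were -2.38 for atpF, -2.30 for atpH, -1.81 for atpA, -1.55 for atpE and -1.54 for atpB, against a median of -0.05 over all probe sets tested and an estimated error of 0.27 (SD). For atpI the signal was at least 2.43-fold lower in emf2; with the floor at the 60th percentile both of its signals lay below it, and 5 genes were called. Expressed as a share of the WT signal, emf2 had 34.5% for atpB, 34.1% for atpE and 28.5% for atpA, against 20.3% for atpH and 19.3% for atpF.

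The 6 genes had a median log2 ratio of -1.68 in emf2 over WT, with the bound of atpI at its value, and -1.81 without atpI. The other plastid-encoded genes had a median of -1.78 over the 58 that were measured, and 41 of those were at least 2-fold lower. Among measured plastid genes, ordered from the highest log2 ratio, atpB stood at place 27 of 64 and atpF at place 52. The 6 genes lay inside the range of the other plastid genes, -3.85 to 0.04.

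Rescued emf2 had higher signals than emf2 for every ATP synthase gene that could be measured. All 5 were at least 2-fold higher, where 5.85% of 14122 probe sets were past 2-fold on the higher side and 4.97% on the lower. The log2 ratios were 2.34 for atpE, 2.15 for atpA, 2.09 for atpB, 1.56 for atpH and 1.52 for atpF, against a median of -0.06 over all probe sets tested. For atpI, both signals lay below the floor and no ratio is given. The median of the 5 genes was 2.09, a 4.27-fold difference as for atpB, and that of the 55 other plastid genes measured was 0.68, with 24 of them past 2-fold upward and 1 downward. This comparison and emf2 over WT share the emf2 array, so a low reading on that array would enter both with opposite sign.

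**Figure D2:**
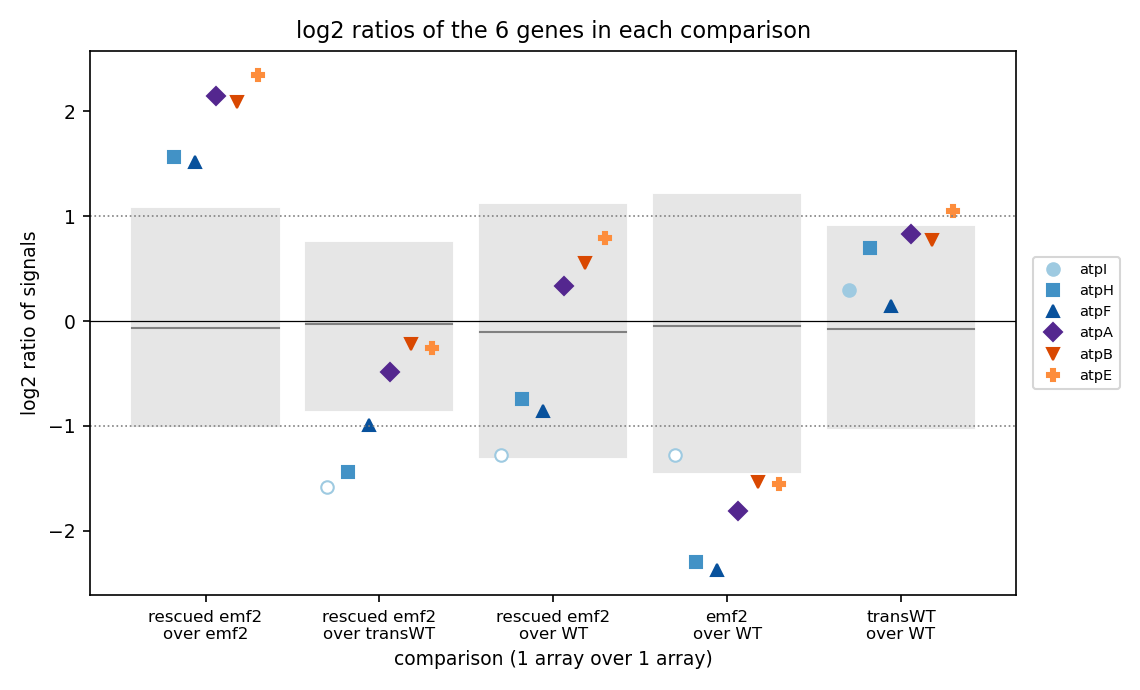
log2 ratio of signals for the 6 genes in each of 5 comparisons between single arrays; filled symbols are measured ratios, open symbols are bounds, grey boxes span the 5th to 95th percentile of all probe sets tested with their median as a line, and dotted lines mark 2-fold. All measured genes are beyond 2-fold in rescued emf2 over emf2 and in emf2 over WT, and in rescued emf2 over WT atpA, atpB and atpE lie above 0 while atpI, atpH and atpF lie below.

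Set against WT, rescued emf2 had 1 of the 6 genes past 2-fold: atpI was at least 2.43-fold lower, a call that a floor at the 60th percentile ended. In this comparison 9.90% of 14593 probe sets were at least 2-fold lower and 5.91% at least 2-fold higher. The other 5 lay within 2-fold but on both sides of WT. Signal was 173% of WT for atpE, 147% for atpB and 126% for atpA, against 59.8% for atpH and 55.3% for atpF. In log2 these were 0.79, 0.56, 0.34, -0.74 and -0.86, with an estimated error of 0.38 (SD) each, so atpA lay within the error of no difference. The sizes above WT depended on the scaling: with each array scaled to its median, atpE passed 2-fold (log2 1.04), whereas atpB lay within the error after quantile normalization (0.10) and cyclic loess (0.21). After these same normalizations atpE was at 0.51 and 0.47 and atpA at 0.14 and 0.09.

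Against transWT, the array that also carried the transgene and hygromycin, rescued emf2 was lower for all 6 genes, and 2 were past 2-fold. Here 2.99% of 14250 probe sets were at least 2-fold lower and 2.26% at least 2-fold higher. The signal of atpH was 2.71-fold lower and that of atpI at least 2.99-fold lower; atpF, at a log2 ratio of -0.99, was just within 2-fold and passed it after cyclic loess (-1.04) and with plastid probe sets left out of the scaling (-1.003). For atpA the log2 ratio was -0.49, for atpE -0.26 and for atpB -0.22, the last pair within the estimated error of 0.35. The median of all 6 was -0.74, next to -0.76 for the 60 other plastid genes measured, of which 24 were past 2-fold downward and 0 upward. Without atpI the median was -0.49 and 1 gene was past 2-fold. With the floor at the 60th percentile the atpI ratio was -0.02.

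In the wild type background the transgene went with higher signals of smaller size. All 6 genes were higher in transWT than in WT, and 1 passed 2-fold, atpE at 2.07-fold. Of 14620 probe sets 3.88% were past 2-fold on the higher side and 5.32% on the lower. The log2 ratios were 1.05 for atpE, 0.83 for atpA, 0.78 for atpB, 0.70 for atpH, 0.30 for atpI and 0.14 for atpF, with an estimated error of 0.33. The ratios of atpI and atpF lay within that error. The median was 0.74, against 0.20 for the 60 other plastid genes measured and -0.07 for all probe sets tested. After quantile normalization and cyclic loess atpE lay within 2-fold (0.71 and 0.81), so no gene of the 6 was past 2-fold there. The ratio of atpB was 0.33 after quantile normalization, no larger than the error, and 0.51 after cyclic loess.

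The difference that went with the transgene was larger in the mutant than in the wild type for all 5 genes measured in both backgrounds. The log2 ratio in rescued emf2 over emf2 exceeded that in transWT over WT by 1.38 for atpF, 1.32 for atpA, 1.32 for atpB, 1.29 for atpE and 0.86 for atpH. The median was 1.32 for these genes, 0.50 for 55 other plastid genes and 0.02 for 13631 probe sets tested in both comparisons. An excess of at least 1 was found for 4 of the 5 genes, for 14 of the 55 other plastid genes (25.5%) and for 6.21% of all 13631. With 1 array in each of the 4 groups this excess has no test. Under the 8 other choices of scaling and floor its median lay between 1.20 and 1.49.

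Compared by transcription unit, atpB-E stood higher than atpI-H-F-A in each of the 5 comparisons. In emf2 over WT the median log2 ratio was -1.54 for atpB-E and -2.06 for atpI-H-F-A, with the bound of atpI at its value; setting the floor at the 25th percentile gave a difference of 0.80 in place of 0.51. In rescued emf2 over emf2 the medians were 2.22 for atpB-E and 1.56 for the 3 measured genes of atpI-H-F-A. This difference of 0.66 was 0.42 after quantile normalization and 0.37 after cyclic loess, both below the estimated error of a difference between a pair of genes in that comparison (0.46). In rescued emf2 over WT they were 0.67 and -0.80, a difference of 1.47, and without atpI 1.41; the median of atpB-E was 0.30 after quantile normalization and 0.34 after cyclic loess, where the differences were 1.14 and 1.20.

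In rescued emf2 over transWT the unit medians were -0.24 for atpB-E and -1.22 for atpI-H-F-A, again with the bound of atpI at its value. Their difference of 0.98 was 0.76 without atpI, and a floor at the 60th percentile gave 0.50. In transWT over WT the unit medians were 0.91 and 0.50. The last difference, 0.41, was below the estimated error of a difference between a pair of genes in that comparison (0.47) and was 0.22 without atpI, 0.14 after cyclic loess and 0.0072 after quantile normalization. The units hold 2 and 4 genes, and the genes of a unit share transcripts, so they are not independent measurements. The comparisons also share arrays with one another.

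Within atpI-H-F-A the genes did not move as one. The last gene of the unit, atpA, followed atpB and atpE more closely than its own neighbours. As a measure of likeness, log2 signals were centred on their mean over the 4 arrays and the Euclidean distance was taken between genes. It was 0.28 between atpA and atpB and 0.32 between atpA and atpE, close to the 0.26 between atpB and atpE. From atpA to its unit neighbours it was 0.84 for atpH and 0.85 for atpF, while atpH and atpF were 0.44 apart. These distances rest on 4 arrays and carry no test.

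These distances come from ratios of signals within an array, which no linear scaling can change. The ratios are therefore no second support for the split and only show on which arrays it lies. The log2 ratio of atpF to atpA was lower than in WT by 1.19 in rescued emf2, by 0.57 in emf2 and by 0.69 in transWT. For atpH to atpA it was lower than in WT by 1.08 in rescued emf2, by 0.49 in emf2 and by 0.13 in transWT. In transWT atpH did not stay with atpF: their log2 ratio was higher than in WT by 0.56. The estimated error of a difference between a pair of genes was 0.47 in transWT over WT. The ratio of atpA to atpB varied by 0.33 over the 4 arrays and that of atpE to atpB by 0.29. The estimated error of a difference between a pair of genes was 0.53 in rescued emf2 over WT, so the changes of atpF and atpH against atpA exceeded it there. Such a ratio shows unequal change and does not say which gene moved.

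Brightness went along with this split. On the WT array atpA, atpB and atpE had the brightest of the 6 probe sets and atpI, atpH and atpF the dimmest, and the part of brightness in the split was not tested. Among other plastid genes, 8 were as bright as atpA or brighter on the WT array. Their median log2 ratio was -0.26 in rescued emf2 over WT and -0.04 in rescued emf2 over emf2, with 1 of 8 at least 2-fold higher in the second. The 29 other plastid genes within 2-fold of the WT signals of atpH and atpF had a median of -0.53 in rescued emf2 over WT and 1.02 in rescued emf2 over emf2. The median of the brighter genes minus that of the 29 was 1.53 in emf2 over WT, 0.27 in rescued emf2 over WT, 0.17 in rescued emf2 over transWT, -0.24 in transWT over WT and -1.06 in rescued emf2 over emf2. The brighter plastid genes were thus the higher ones in 3 of the 5 comparisons, by the most in emf2 over WT, and the lower ones in the other two.

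The genes next to the units on the plastid genome were low in emf2 too. In the direction of reading, rps2, for a protein of the small ribosomal subunit, precedes atpI, and rpoC2, for a subunit of the plastid RNA polymerase, precedes rps2. The signal of rps2 was 1880 in rescued emf2, 263 in emf2, 2820 in transWT and 2174 in WT, which puts rescued emf2 at a log2 ratio of 2.84 over emf2 and of -0.21 over WT. For rpoC2 the signals were 183, 42.5, 832 and 490 in the same order, with a ratio to WT that was at least 5.60-fold lower for emf2 and 2.67-fold lower for rescued emf2. On the other side, rbcL lies beside atpB and is read the opposite way; it encodes the large subunit of Rubisco. It read 370 in rescued emf2, 175 in emf2, 1020 in transWT and 684 in WT, so that its log2 ratio in rescued emf2 over WT was -0.89 where that of atpB was 0.56.

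**Figure D3:**
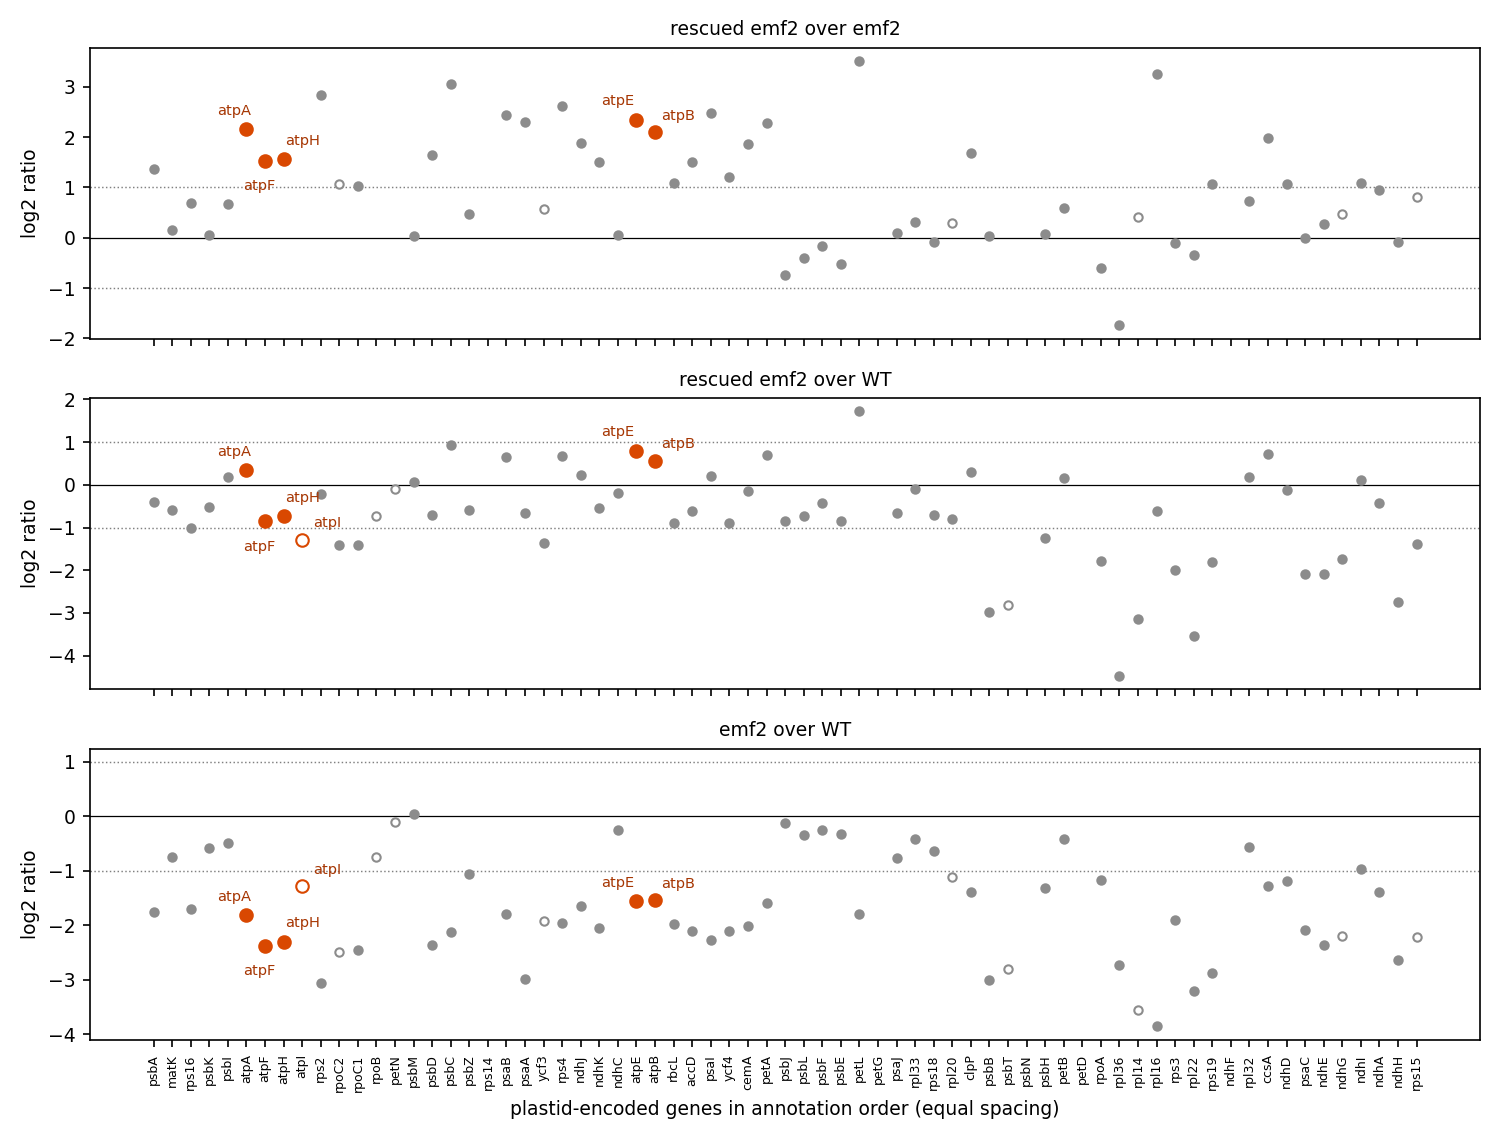
log2 ratio of signals for the plastid-encoded genes in the order of the annotation, equally spaced, in rescued emf2 over emf2, rescued emf2 over WT and emf2 over WT; orange points are the ATP synthase genes, open points are bounds, gaps are genes below the floor on both arrays, and dotted lines mark 2-fold. In rescued emf2 over WT atpA (0.34) lies above 0 beside atpF (-0.86) and atpH (-0.74), and atpE (0.79) and atpB (0.56) lie above their neighbour rbcL (-0.89).

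By function, the ATP synthase genes were the group of plastid genes in which each measured member was past 2-fold, on the higher side, in rescued emf2 over emf2. The counts were 3 of 5 for photosystem I, 3 of 13 for photosystem II, 2 of 3 for the cytochrome b6f complex, 4 of 9 for the NDH complex, 4 of 14 for ribosomal proteins, 2 of 3 for the RNA polymerase and 6 of 8 for all others. Together 24 of 55 other plastid genes were past 2-fold on the higher side, against 5.85% of all probe sets tested. The ATP synthase count leaves out atpI, which had no ratio, and at 3-fold 3 of its 5 genes passed. Medians of this log2 ratio were 2.30 for photosystem I and 2.28 for cytochrome b6f, both above the 2.09 of ATP synthase, and 0.06 for photosystem II. In emf2 over WT the median was -2.08 for photosystem I, -2.07 for ribosomal proteins, -0.82 for photosystem II and -1.003 for cytochrome b6f. The groups are small and share transcripts, and the differences between them were not tested.

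**Figure D4:**
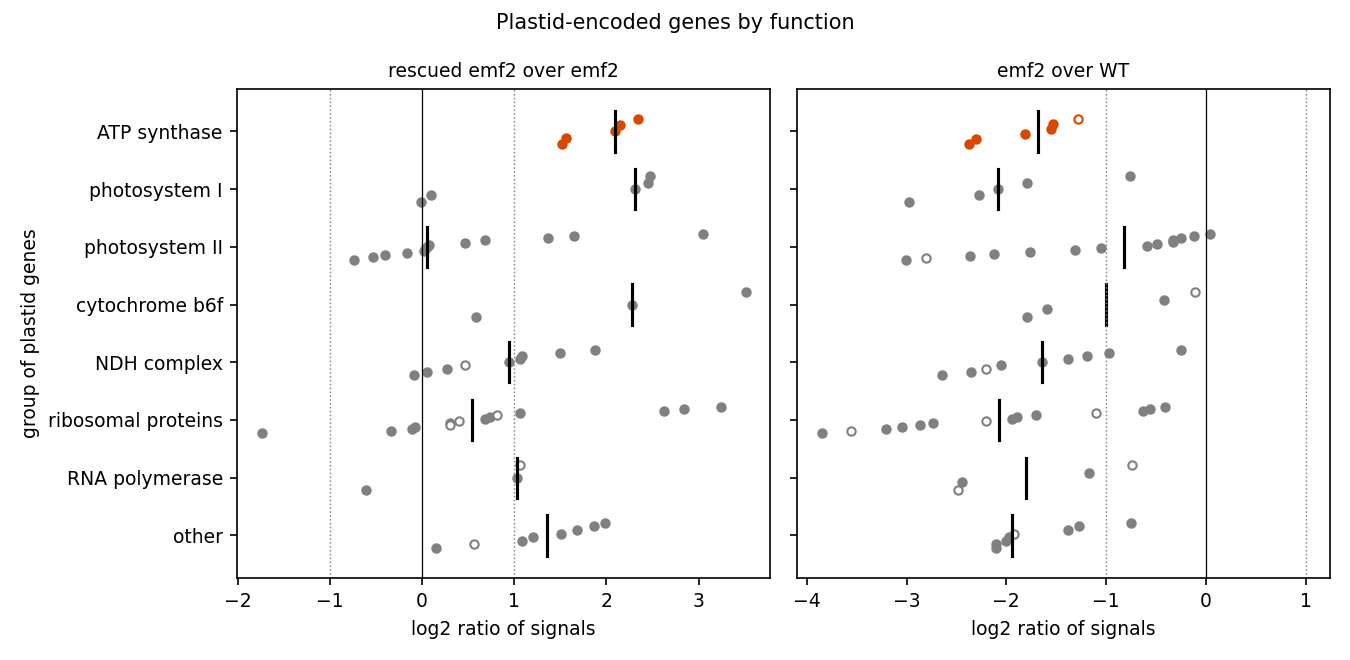
log2 ratio of signals for plastid-encoded genes by function, in rescued emf2 over emf2 (left) and emf2 over WT (right); each point is a gene (spread vertically only for legibility), open points are bounds, black bars are group medians and dotted lines mark 2-fold. ATP synthase genes, in orange, range from 1.52 to 2.34 on the left, where photosystem II genes range from -0.74 to 3.05.

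The nuclear genes of the same complex were covered in part: 2 of 4 had a named probe set, and both lay within 2-fold in every comparison. So did most probe sets: in emf2 over WT 11.1% were at least 2-fold lower and 7.34% at least 2-fold higher. ATPC1, for the gamma subunit that forms the central shaft of the head, read 16710 in rescued emf2, 10687 in emf2, 20504 in transWT and 13948 in WT. Its order of arrays was that of atpA, atpB and atpE, with smaller steps: the log2 ratio was 0.64 in rescued emf2 over emf2, -0.38 in emf2 over WT and 0.56 in transWT over WT. ATPC2, a second gene for the gamma subunit, read 140 in rescued emf2, 146 in emf2, 195 in transWT and 193 in WT. In emf2 ATPC1 had 76.6% of its WT signal, where the plastid genes of the alpha and beta subunits had 28.5% and 34.5%.

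A list of 10 nuclear genes for assembly of the complex or for processing of atp transcripts had 6 with a named probe set. In emf2 over WT 5 of the 6 were at least 2-fold lower (median log2 ratio -1.30), and in rescued emf2 over WT 4 of 6 (median -1.16); of all probe sets tested 11.1% and 9.90% were. In rescued emf2 over emf2 0 of 6 passed 2-fold in either direction (median 0.17). Of all probe sets tested 5.85% were at least 2-fold higher there and 4.97% at least 2-fold lower, so 0 of 6 is near those shares. CFM3A, of the CRM family of chloroplast RNA-binding proteins that take part in intron splicing, read 99.3 in rescued emf2, 102 in emf2, 119 in transWT and 391 in WT. It was the 1 listed gene past 2-fold in transWT over WT, 3.29-fold lower. In that comparison 5.32% of all probe sets tested were at least 2-fold lower. The CFM3A signals in rescued emf2, emf2 and transWT lay close to the floor, so its ratios to WT rest on dim readings. AT3G22150 read 130 in rescued emf2, 140 in emf2, 256 in transWT and 493 in WT.

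The mitochondrion has an ATP synthase of its own. Of 9 nuclear genes listed for it 2 had a named probe set, and both lay within 2-fold in every comparison, as most probe sets did. AT5G47030 read 4499 in rescued emf2, 4764 in emf2, 5036 in transWT and 5471 in WT, and AT1G51650 read 4185, 5077, 3269 and 3414 in the same order. In emf2 over WT their log2 ratios were -0.20 and 0.57. The 6 mitochondrion-encoded members listed had no probe set named by a single gene, and neither had the 6 sigma factors, the 13 proteins associated with the plastid RNA polymerase and the 6 plastid RNA processing and decay enzymes, which were not analysed here. Of 3 phage-type RNA polymerase genes 1 was named and it was below the floor on every array.

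Markers of green tissue were higher in rescued emf2 than in emf2 and mostly lower in emf2 than in WT. In rescued emf2 over emf2 5 of 7 green tissue markers were at least 2-fold higher, and in emf2 over WT 3 of 7 were at least 2-fold lower, with median log2 ratios of 1.09 and -0.77; over all probe sets these shares were 5.85% and 11.1%. In the other comparisons the markers' medians were 0.45 in rescued emf2 over WT, -0.27 in rescued emf2 over transWT and 0.46 in transWT over WT. In rescued emf2 over WT the median of the 6 genes was -0.20 with the bound of atpI at its value. It was 0.34 without atpI and 0.0507 with median scaling, so its sign is not set against the markers. LHCB4.3, for a light-harvesting protein of photosystem II, had the largest change of the 7: it read 736 in rescued emf2, 346 in emf2, 1641 in transWT and 347 in WT, so that emf2 had 99.8% of the WT signal. SBPASE, of the Calvin cycle, read 7890 in rescued emf2, 2668 in emf2, 10495 in transWT and 8341 in WT, and PRK, of the same cycle, 7682, 4454, 11755 and 11646. LHCB4.2 read 21125 in rescued emf2, 8746 in emf2, 21047 in transWT and 14945 in WT, with rescued emf2 level with transWT. The 7 markers ranged from -1.16 to 0.16 in log2 in rescued emf2 over transWT. There 1 of them was at least 2-fold lower, against 2.99% of all probe sets, and 6 lay within 2-fold. Of the 3 root markers, the expansin genes EXPA18 and EXPA7 were past 2-fold in both comparisons, lower in rescued emf2 over emf2 and higher in emf2 over WT, and PYK10 lay within 2-fold. The part of tissue makeup in the ATP synthase results was not tested.

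The genes with the most similar pattern were sought among 6392 genes above the floor on all 4 arrays. Nearest to the mean profile of atpB and atpE was petA, for cytochrome f of the cytochrome b6f complex, at a distance of 0.13, with signals of 5136 in rescued emf2, 1057 in emf2, 6539 in transWT and 3180 in WT. Next came ccsA, a plastid gene for attachment of haem to cytochromes (0.21), and the nuclear genes AT3G44630 (0.24), PUB26 (0.25) and AT3G48420 (0.25). Counted among these candidates, atpA stood at place 7. The median distance of all candidates was 2.05.

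Nearest to the mean profile of atpH, atpF and atpA were the nuclear genes AT3G23880 (0.14), AT5G45630 (0.23) and AT1G14345 (0.28), then the plastid genes cemA, for a protein of the chloroplast envelope (0.28), and accD, for a subunit of the acetyl-CoA carboxylase (0.30). AT3G23880 read 358 in rescued emf2, 108 in emf2, 759 in transWT and 451 in WT. The unit's own genes lay farther from this mean than the genes just listed: atpH at 0.34, atpF at 0.35 and atpA at 0.54. This order follows in part from the construction. The mean joins atpA with atpH and atpF, whose patterns differed, and the listed genes were picked as the nearest of 6392. The median distance of all candidates to this profile was 2.14. Likeness over 4 arrays is a description of these arrays alone.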

How the data were processed

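The deposited table holds intensity values, probe set signals on a linear scale that the authors summarised with MAS5, per the submitters' processing notes; its version was not given in the sources used here. The mean signal, with 2% trimmed at each end, was 500.05 on every array, so they had been scaled before deposit. cRNA was made from 10 µg of total RNA, per the labels' protocols. Arrays have no depth in counts; their number limits the precision.

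Arrays were rescaled to that trimmed mean, floored at the 40th percentile of 22746 probe sets (64 controls left out), and compared as log2 ratios of single arrays, with 2-fold as the size threshold. A ratio is the first-named group over the second. The counting rules were tested on simulated data with known changes in bright probe sets. That tests the code and not the precision of these arrays. The annotation table of the platform gave the names: 13513 probe sets had 1 gene, 503 several (none named from these) and 8794 were not listed; 13436 matched the TAIR10.1 gene table, which was used for names and gene order only. Of several probe sets of a gene the brightest was used. No sequences were at hand.

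Named genes are the 6 members, all named neighbours and nuclear subunits, up to 4 members of each other list with the largest change, and the 5 genes nearest to each unit's profile. The members and lists were chosen with earlier results of these data known. The alternatives were values as deposited, scaling to the median, quantile normalization and cyclic loess (limma 3.58.1, R 4.3.3), scaling without plastid probe sets, no floor with a pseudocount of 1, a floor at the 25th or 60th percentile, and thresholds of 1.5-fold and 3-fold. Leaving out atpI was added after seeing the data.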

Additional observations from a re-analysis of the deposited data

How the results depend on the processing

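With 1 array per group, no replicate could be left out and no value has a test. No paired analysis was possible because each group has 1 array. Scaling moved all genes: the median log2 ratio of all probe sets in rescued emf2 over WT was -0.10 as reported and 0.14 with each array scaled to its median. There 62.7% of 2-fold differences were on the higher side, against 37.4% as reported, with 58.0% against 39.7% in emf2 over WT, 60.3% against 42.2% in transWT over WT and 56.3% against 43.0% in rescued emf2 over transWT. Where a single gene had a ratio, its sign held under the alternatives run; atpI had none in rescued emf2 over emf2 as reported, and with the floor at the 60th percentile none in rescued emf2 over WT or emf2 over WT, where 5 genes were then lower. The sign of the median of the 6 in rescued emf2 over WT (-0.20) did not hold, at 0.34 with the floor at the 60th percentile or without atpI and 0.0507 with median scaling. Of 299 recomputed summary values 271 stayed within the estimated error or, for counts, within 1.5 times. Part of the 299 could not move, since the deposited values were already scaled and a changed floor does not reach the brighter genes. The cause of the moves beyond these limits was not tested where it is not plain from the setting.

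With the floor at the 60th percentile, rescued emf2 over transWT had 1 gene past 2-fold in place of 2, a median of -0.37, a median of -0.74 for atpI-H-F-A and a unit difference of 0.50, and rescued emf2 over WT had 0 lower genes. Without atpI these counts were 1 and 0. With the floor at the 25th percentile, emf2 over WT had a median of -2.06, -2.34 for atpI-H-F-A and a unit difference of 0.80; without a floor these were -2.06, -2.34 and 0.79. Quantile normalization gave, for transWT over WT, 0 genes past 2-fold, 0.52 for atpB-E and a unit difference of 0.0072, and cyclic loess 0 genes. With median scaling rescued emf2 over WT had 1 higher gene past 2-fold, atpE. At 3-fold, 3 genes were higher in rescued emf2 over emf2, 3 lower in emf2 over WT, 0 lower in rescued emf2 over transWT and over WT, and 0 higher in transWT over WT. At 1.5-fold, 3 were lower and 1 higher in rescued emf2 over WT, and 4 higher in transWT over WT. Low signal limits atpI alone among the 6: it gives bounds or no ratio in 4 of 5 comparisons.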
